A study of Caenorhabditis elegans with 16 samples.

Results

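The cuticle collagens of C. elegans were followed across a cold exposure experiment in 4 strains. They were taken by symbol, as every gene whose name begins with col- except col-135, together with 16 collagens named for the body shape or blister phenotype of their mutants (dpy-2, dpy-3, dpy-5, dpy-7, dpy-8, dpy-9, dpy-10, dpy-13, rol-6, rol-8, sqt-1, sqt-2, sqt-3, bli-1, bli-2 and lon-3). This gave 171 genes of 20447 in the count table, 155 of them col- genes. The rule used no measured value.

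The cuticle is the worm's outer coat, secreted by the epidermis beneath it and replaced at each larval molt. Its collagens are short chains with Gly-X-Y repeats that are hydroxylated, trimmed by proteases and cross-linked, and most of them are made in pulses timed to a molt. Some build the annular furrows, the circumferential grooves of the cuticle, others set body length and width, and a few, such as col-19, are switched on at the molt into the adult.

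Poly-A RNA was sequenced from hermaphrodite populations of about 1000 adults on day 1 of adulthood. There were 4 strains, the double mutant of pqm-1(ok485) with ets-4(rrr16), the double mutant of daf-16(mu86) with the same ets-4 allele, the ets-4(rrr16) single mutant and wild type (wt). Each was collected after 2 h at 10 °C and 24 h at 4 °C and also kept at 20 °C, which gave 8 groups of 2 replicates. Both double mutants carry the ets-4 allele of the single mutant, so each was set against ets-4, and ets-4 against wt. All 3 mutated genes encode transcription factors, and each mutation is present in the whole animal. Below, the double mutants are called pqm-1 ets-4 and daf-16 ets-4.

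The 16 libraries held 32046029 to 48770269 counts each. The study calls the replicates biological. The replicate number was fitted as a block, so p-values rest on the spread left after the shift shared by same-numbered libraries is taken out. Whole animals were sequenced, so fewer epidermal cells and less collagen RNA per cell cannot be told apart. The targeted genes were read first. ets-4 had 4.35 and 8.83 CPM (each gene's counts relative to the library total, per 1e+06, with the total scaled by TMM, the trimmed mean of M-values) in ets-4 at 4 °C, against 60.3 and 84.5 in wt at 4 °C. At 20 °C its order was the opposite, with 76.9 and 159 CPM under the ets-4 label and 26.3 and 25.9 in wt. daf-16 had 104 and 116 CPM in daf-16 ets-4 at 4 °C and 247 and 226 in ets-4. At 20 °C it had 107 and 175 CPM under the daf-16 ets-4 label and 163 and 185 under the ets-4 label, which overlap. pqm-1 had 149.7 and 143 CPM in pqm-1 ets-4 at 4 °C and 221 and 269 in ets-4, and at 20 °C 5.98 and 16.2 under the pqm-1 ets-4 label and 20.4 and 32.8 under the ets-4 label. The ets-4 levels at 20 °C go against the labels of the mutant libraries there, and the daf-16 levels do not separate them, so these libraries are named by their labels and any direction drawn from them rests on those labels.

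A small set of collagens held nearly all of the collagen counts. The 23 members with a mean of 100 CPM or more over the 16 libraries held 97.5% of the counts on all members. Another 5 had means of 10 to 100 CPM, 68 of 1 to 10 CPM and 75 of under 1 CPM. Per kilobase of exon, the highest mean levels were those of col-119 (1871 CPM per kb), col-181 (1785 CPM per kb) and col-122 (1752 CPM per kb). col-19, the collagen of the adult cuticle whose promoter is a standard marker of the adult epidermis, had 1250 CPM per kb. Against these, dpy-5 and dpy-13, collagens whose loss shortens the body, had means of 4.80 and 4.43 CPM per kb. Both genes were far higher in 1 library labelled pqm-1 ets-4, described below, which raised these means, so they are not read as typical levels. The furrow collagen dpy-7 had a mean of 0.973 CPM per kb. The members are similar in sequence and only uniquely mapped reads were counted, so the level of a member with a near-identical copy, such as col-12 and col-13, may be understated. No counts at all fell on col-126, col-127 and col-171.

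The epidermis that makes these collagens was well detected. The 7 epidermal genes summed to 613 to 715 CPM at 4 °C and 638 to 1040 CPM at 20 °C, with none at 0. Of the 4 adult cuticle collagens, col-19 alone was abundant. bli-1 and bli-2, whose loss blisters the adult cuticle, had 0.133 to 8.90 and 0 to 9.56 CPM over the 16 libraries, and col-7 had 0 to 5.82 CPM.

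The collagens took a smaller share of all counts in the cold in each strain. Members held 1.60 and 1.69% of the counts in pqm-1 ets-4 at 4 °C, against 2.64 and 3.06% in the libraries labelled pqm-1 ets-4 at 20 °C. In daf-16 ets-4 the shares were 1.71 and 1.77% at 4 °C, against 3.16 and 3.0% at 20 °C. In ets-4 they were 1.38 and 1.63% at 4 °C, against 2.10 and 2.17% at 20 °C. In wt they were 1.11 and 1.25% at 4 °C, against 1.70 and 1.97% at 20 °C. In no strain did the libraries of the 2 temperatures overlap. At each temperature every library of a double mutant lay above the wt libraries, and at 20 °C also above the ets-4 ones.

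**Figure D1:**
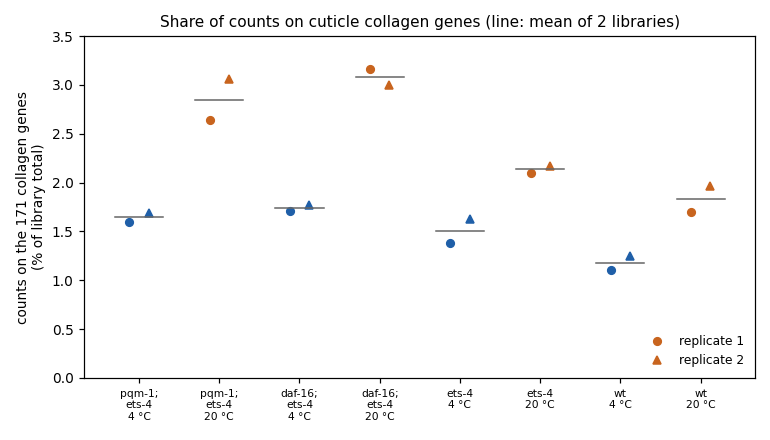
Share of counts on the 171 cuticle collagen genes, as % of the library total, in each of the 16 libraries (circle, replicate 1; triangle, replicate 2; line, their mean; blue, 4 °C; orange, 20 °C). In each strain both 4 °C libraries sit below both 20 °C libraries, from 1.11% in wt at 4 °C to 3.16% in daf-16 ets-4 at 20 °C.

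The first question was which collagens respond to cold in wt. Of the 137 members that passed the filter on low counts, 34 were lower at 4 °C and 2 were higher. This is 24.8 and 1.46% of the members tested, against 22.6% of all 15775 genes tested called lower and 19% called higher. The filter was set over all 16 libraries, and 18 of the 137 had under 10 counts in the 4 wt libraries together, so these could hardly be called in wt and nothing is read from the share. In wt, 19 of the 23 members with means of 100 CPM or more were lower, and 11 of the 68 with means of 1 to 10 CPM. The median log2 fold change of the members was -0.23, against -0.03 over all genes. Calls are at an adjusted p under 0.05 by edgeR's quasi-likelihood test with Benjamini-Hochberg adjustment over all genes, with the replicate number as a block, and the same test stands behind each adjusted p below. Errors on fold changes are standard errors.

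The same comparison in ets-4 gave 38 members lower at 4 °C and 4 higher, which is 27.7 and 2.92% of those tested (23.1 and 21.3% of all genes). In daf-16 ets-4, 57 members were lower and 6 higher, or 41.6 and 4.38% (28.5 and 25.8% of all genes). In pqm-1 ets-4, 70 were lower and 5 higher, or 51.1 and 3.65% (25.8 and 25.9% of all genes). The filter is again the one over all 16 libraries, so a low member could be tested through the groups where it was high. Under 10 counts in the 4 libraries of a strain were seen for 9 of the 137 members in ets-4, and for 0 in each double mutant. Nothing is therefore read from these shares, or from the counts and medians that follow, as a difference between strains. Of the 68 members with means of 1 to 10 CPM, 14 were lower in ets-4, 20 in daf-16 ets-4 and 29 in pqm-1 ets-4. The median log2 fold changes of the members were -0.27 in ets-4, -0.97 in daf-16 ets-4 and -1.10 in pqm-1 ets-4. Of the 75 members called in pqm-1 ets-4, the count was 49 without pqm-1 ets-4 4 °C replicate 1. Without the replicate block the counts of called members were 30 in wt, 29 in ets-4, 41 in daf-16 ets-4 and 44 in pqm-1 ets-4.

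In all 4 strains 28 members were lower in the cold, 20.4% of those tested, against 16.4% of all genes. Of these, 17 were among the 23 members with means of 100 CPM or more, and 3, 7 and 1 had means of 10 to 100, 1 to 10 and under 1 CPM. The other 6 of the 23 were col-95, col-106, col-124, col-139, col-181 and col-184. All 28 were lower in all 4 strains also without pqm-1 ets-4 20 °C replicate 2, a library that stood apart from the rest.

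**Figure D2:**
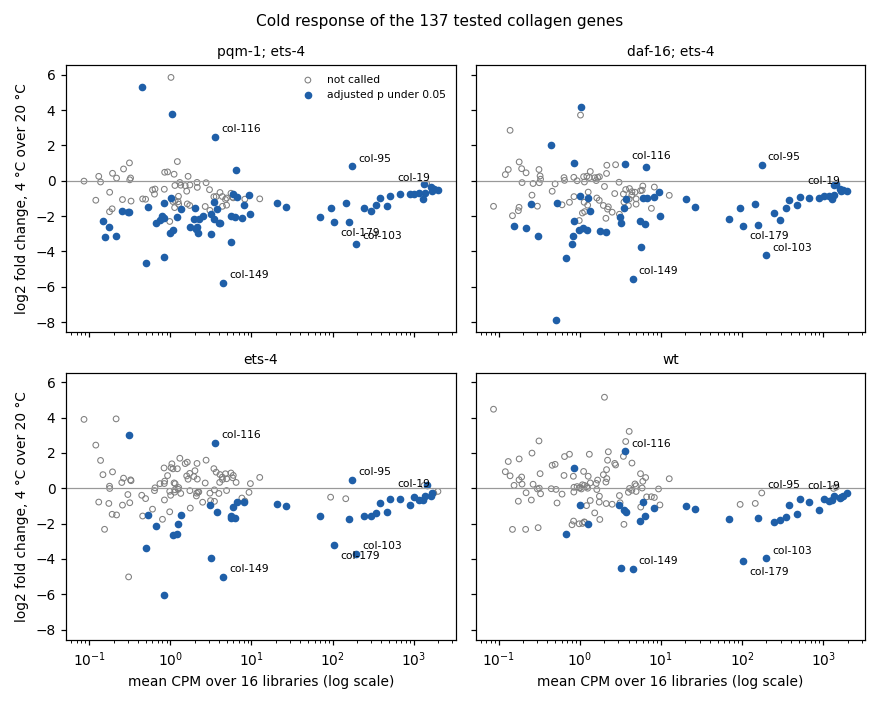
Log2 fold change of 4 °C over 20 °C against mean CPM over the 16 libraries (log scale), 1 panel per strain, for the 137 members tested (filled, adjusted p under 0.05; open, not called). The members with means of 100 CPM or more lie mostly below 0 in each panel, with col-103 near -4 and col-95 above 0 in the 3 mutant strains. Low members spread below 0 in the double mutants and around 0 in wt and ets-4. A low member could pass the filter through the groups where it was high, so this is not read as a difference between strains.

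Among the abundant collagens the fall differed in size. col-103 (chromosome IV, bases 762413 to 763678 of WBcel235, minus strand) had 16.5 and 19.4 CPM in wt at 4 °C, against 251 and 308 in wt at 20 °C. It had 24.7 and 25.2 CPM in ets-4 at 4 °C, against 344 and 304 at 20 °C. In daf-16 ets-4 it had 26.9 and 21.1 CPM at 4 °C, against 485 and 407 at 20 °C, and in pqm-1 ets-4 36.1 and 34.6 CPM, against 451 and 387. In every strain both 4 °C libraries lay far below both 20 °C libraries. The log2 fold change was -3.96 ± 0.16 in wt (adjusted p = 1.98e-08, edgeR), -3.70 in ets-4, -4.21 in daf-16 ets-4 and -3.57 in pqm-1 ets-4. It shares exon bases with gst-40 on the other strand, which had a mean of 0.472 CPM.

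col-179 (chromosome X, 11201465 to 11202485, plus strand) had 5.5 and 10.1 CPM in wt at 4 °C, against 116 and 145 in wt at 20 °C, and its log2 fold change was -4.11 ± 0.35 (adjusted p = 2.24e-05, edgeR). It had 9.4 and 27.1 CPM in ets-4 at 4 °C, against 141 and 181 at 20 °C, a log2 fold change of -3.22. In daf-16 ets-4 it had 33.3 and 48.3 CPM, against 228 and 232, and in pqm-1 ets-4 29.6 and 52.1 CPM, against 189 and 211. Its 4 °C level was thus highest in the double mutants, while the 20 °C levels of the 4 strains lay closer together. The difference in its cold response from wt was not called in daf-16 ets-4 (1.57, adjusted p = 0.2945, edgeR) or in pqm-1 ets-4 (1.76, adjusted p = 0.1985, edgeR). Its neighbour col-178, 997 bases upstream, had smaller log2 fold changes, -0.59 in wt and -0.84 in pqm-1 ets-4.

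Other abundant members fell by intermediate amounts. On the log2 scale the fold change in wt was -1.91 for col-98, -1.79 for col-42, -1.69 for col-129, -1.65 for col-93, -1.48 for col-143 and -1.20 for col-101, and each of these was called lower in all 4 strains. Log2 fold changes of the 10 members with the highest mean CPM ran from -1.04 for col-140 in daf-16 ets-4 to 0.21 for col-184 in ets-4. col-19 had 466 and 656 CPM in wt at 4 °C, against 819 and 1011 at 20 °C. In pqm-1 ets-4 it had 995 and 1174 CPM, against 1678 and 1870. Its log2 fold change was -0.71 ± 0.12 in wt (adjusted p = 0.000451, edgeR), -0.65 in ets-4, -0.85 in daf-16 ets-4 and -0.71 in pqm-1 ets-4. In wt, col-140, col-8, col-119, col-122, col-20, col-124 and col-181 had log2 fold changes of -0.67 to -0.28, all called. All of these were called lower in both double mutants as well. Among them the largest falls in daf-16 ets-4 were those of col-140 (-1.04), col-8 (-0.85) and col-20 (-0.81). In pqm-1 ets-4 they ran from -1.01 for col-140 to -0.37 for col-119. col-106 (-0.01) and col-184 (0.06) were not called in wt.

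Of the 23 abundant members, col-95, col-106 and col-184 had fold changes of both signs among the strains. col-106 had -0.24 in daf-16 ets-4 and -0.19 in pqm-1 ets-4, both called, and 0.15 in ets-4 and -0.01 in wt, neither called. col-184 had 1555 and 1515 CPM in ets-4 at 4 °C, against 1411 and 1243 at 20 °C, and rose by 0.21 on the log2 scale (adjusted p = 0.0359, edgeR). It had 1565 and 1525 CPM in daf-16 ets-4 at 4 °C, against 1877 and 1667 at 20 °C, a log2 fold change of -0.20 (adjusted p = 0.0426, edgeR). The difference between these 2 responses was not tested. Both calls are weak: each was lost without the replicate block, that in ets-4 also without any 1 of the 4 ets-4 libraries, and that in daf-16 ets-4 without either 4 °C library or 20 °C replicate 1, with the direction kept.

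col-95 (chromosome III, 11703994 to 11705091, plus strand) had 245 and 241 CPM in daf-16 ets-4 at 4 °C, against 129 and 128 at 20 °C. It had 167 and 162 CPM in pqm-1 ets-4, against 110.1 and 78.5, and 215 and 182 CPM in ets-4, against 168 and 119. In wt it had 196 and 190.5 CPM at 4 °C, against 265 and 204 at 20 °C. The 4 °C libraries lay above the 20 °C libraries in the 3 mutant strains and below them in wt. The log2 fold change was 0.92 ± 0.13 in daf-16 ets-4 (adjusted p = 0.000125, edgeR), 0.82 in pqm-1 ets-4 and 0.48 in ets-4, against -0.27 in wt, which was not called.

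The difference between cold responses was tested directly. col-95 was the 1 member whose cold response in daf-16 ets-4 differed from that in wt, by 1.19 ± 0.18 on the log2 scale (adjusted p = 0.0467, edgeR), with 0.73% of members called above and 0 below, against 0.038 and 0.0571% of all genes. In pqm-1 ets-4 its difference from wt was 1.09 ± 0.18 (adjusted p = 0.0548, edgeR) and in ets-4 0.75 ± 0.18 (adjusted p = 0.875, edgeR), in the same direction and not called. The call in daf-16 ets-4 was lost without wt 4 °C replicate 1 or 2, wt 20 °C replicate 1, daf-16 ets-4 4 °C replicate 2 or daf-16 ets-4 20 °C replicate 1 (adjusted p of 0.0655 to 0.138) and without the replicate block (0.304), with a log2 difference of 1.08 to 1.29 over 15 alternatives. For pqm-1 ets-4 against wt, 0 members were called by edgeR (13 at an unadjusted p under 0.05, 4 by DESeq2), against 0.0571 and 0.0824% of all genes called above and below. For ets-4 against wt, 0 were called by edgeR (2 unadjusted, 1 by DESeq2), against 0.0 and 0.00634% of all genes. The larger number of members lower in the double mutants is therefore not shown, gene by gene, to be a different response from that of wt.

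**Figure D3:**
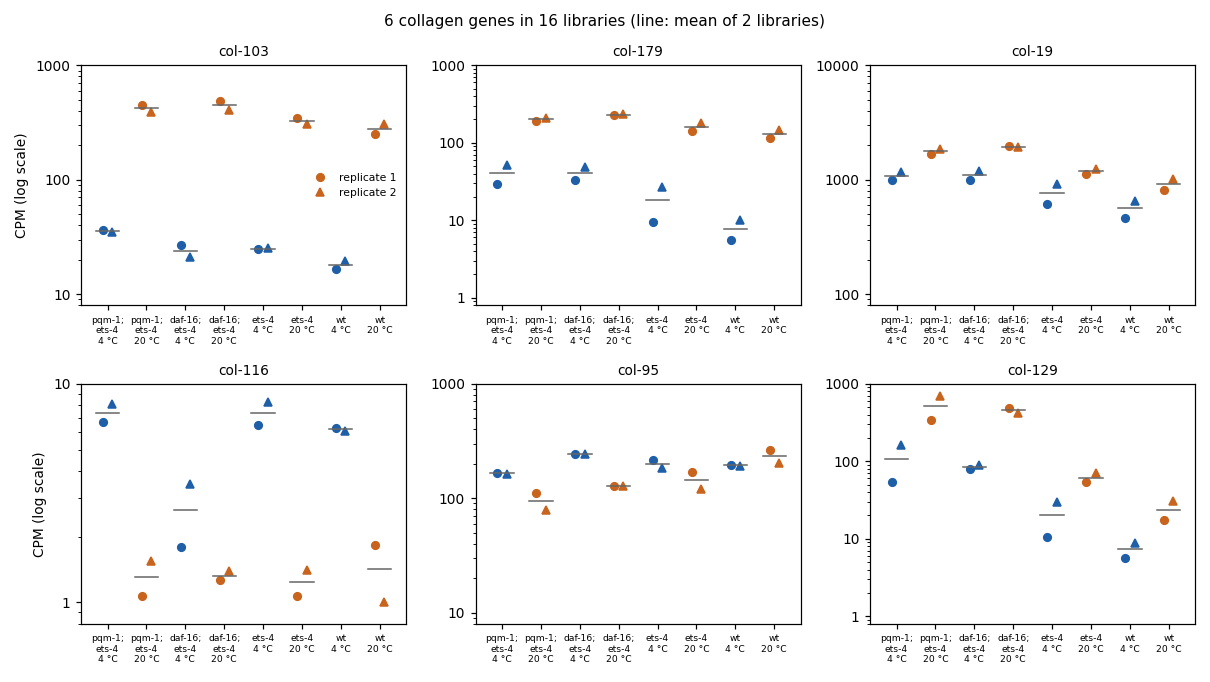
CPM (log scale) of 6 collagens in the 16 libraries (circle, replicate 1; triangle, replicate 2; line, their mean; blue, 4 °C; orange, 20 °C). col-103 and col-179 are lower at 4 °C in every strain, col-116 higher, col-95 is higher in the 3 mutant strains and lower in wt, where it was not called, and col-129 is higher in both double mutants at each temperature, with 688 CPM in pqm-1 ets-4 20 °C replicate 2.

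A few collagens rose. col-116 (chromosome IV, 8355906 to 8357919, plus strand) was the 1 member higher at 4 °C in all 4 strains, 0.73% of those tested, against 15.1% of all genes. It had 6.28 and 6.07 CPM in wt at 4 °C, against 1.82 and 1.01 at 20 °C, and 6.46 and 8.27 CPM in ets-4, against 1.07 and 1.4. It had 6.65 and 8.05 CPM in pqm-1 ets-4 at 4 °C, against 1.07 and 1.55 at 20 °C, and 1.79 and 3.49 CPM in daf-16 ets-4, against 1.27 and 1.39. The rise was smallest in daf-16 ets-4. The log2 fold change was 2.10 ± 0.31 in wt (adjusted p = 0.000182, edgeR), 2.56 in ets-4, 2.49 in pqm-1 ets-4 and 0.97 in daf-16 ets-4, and the call in daf-16 ets-4 was lost without daf-16 ets-4 4 °C replicate 2 or either of its 20 °C libraries. It shares exon bases with F17E9.2 on the same strand, which had log2 fold changes of 1.33 in wt, 2.0 in ets-4, 2.24 in pqm-1 ets-4 and 0.86 in daf-16 ets-4, so the values of col-116 are uncertain.

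Of the other 7 members higher in at least 1 strain, col-95 and col-184 were abundant and the rest low. dpy-10, a furrow collagen, had 9.32 and 6.81 CPM in pqm-1 ets-4 at 4 °C, against 4.5 and 5.84 at 20 °C (0.63 on the log2 scale, adjusted p = 0.0384, edgeR), and 7.89 and 8.95 CPM in daf-16 ets-4, against 4.05 and 5.68 (0.78). col-64 rose by 1.16 in wt and 1.00 in daf-16 ets-4. col-128 had 15 and 17 counts in ets-4 at 4 °C, against 2 and 2 at 20 °C. col-74 had 26 and 11 counts in daf-16 ets-4 at 4 °C, against 2 and 0 at 20 °C, a ratio of 21.7 with a 95% exact counting interval of 5.60 to 186. col-121 had 29 and 17 counts in pqm-1 ets-4 at 4 °C, against 0 and 1 at 20 °C, a ratio of 50.3 with an interval of 8.59 to 2030. Such intervals cover counting error only. Of the 8 members that rose somewhere, 5 share exon bases with another protein-coding gene, as do 40 of the 171 members, 8 of them with a gene on the same strand. mom-4 overlaps col-64, gtap-1 overlaps col-74 and daf-15 overlaps col-121, with means of 79.3, 94.9 and 181 CPM, and whether the counting used strand is not stated. dpy-10 also shares exon bases with another protein-coding gene on the same strand, so its values are uncertain too.

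Several low collagens lost nearly all their counts in the cold. col-149 had 1 and 4 counts in wt at 4 °C, against 70 and 66 at 20 °C, and 7 and 16 counts in pqm-1 ets-4, against 445 and 947. Its log2 fold change was -4.55 ± 0.81 in wt (adjusted p = 0.00119, edgeR), -5.03 in ets-4, -5.54 in daf-16 ets-4 and -5.77 in pqm-1 ets-4. col-158 had 0.203 and 0.586 CPM in wt at 4 °C, against 8.03 and 10.2 at 20 °C, and fell in all 4 strains (log2 fold change of -4.50 in wt). col-94 fell in all 4 strains as well (-2.59 in wt). col-147 fell in daf-16 ets-4 (-3.74), pqm-1 ets-4 (-3.48) and ets-4 (-1.58). col-156 was at 0 in daf-16 ets-4 at 4 °C, against 8 and 53 counts at 20 °C, at least 17.3-fold lower against a floor of 3 counts over the group. col-137 was at 0 in ets-4 at 4 °C, against 0 and 19 counts at 20 °C, at least 6.15-fold lower on the same floor, with all its 20 °C counts in replicate 2.

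By role, few of the collagens named for mutant phenotypes were called in the cold, and nothing is read from counts of this size. Over all genes, 19 to 25.9% were called higher and 22.6 to 28.5% lower in the 4 strains. Several of these members were low with wide errors, such as standard errors in wt of 2.80 for bli-2, 2.70 for lon-3 and 2.56 for sqt-1. The lack of a call therefore does not show that they did not respond. Of the 6 furrow collagens (dpy-2, dpy-3, dpy-7, dpy-8, dpy-9 and dpy-10), none was called in wt or ets-4 and dpy-10 alone was called, as higher, in each double mutant, with list medians of 0.54 in wt, 0.32 in ets-4, 0.21 in daf-16 ets-4 and 0.31 in pqm-1 ets-4. Their summed level was 12 and 11 CPM in wt at 4 °C, against 7.24 and 8.34 at 20 °C. Of the 8 body shape collagens (dpy-5, dpy-13, rol-6, rol-8, sqt-1, sqt-2, sqt-3 and lon-3), none was called in any of the 4 strains, and their medians ranged from -1.11 in pqm-1 ets-4 to 0.70 in ets-4. Of the 4 adult cuticle collagens, col-19 was called lower in all 4 strains, and col-7 in both double mutants. col-99, a transmembrane collagen, fell in wt (-0.97) and ets-4 (-0.95).

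The next comparisons were between strains at 4 °C. In ets-4 against wt, 11 of the 119 members tested were higher and 0 lower, or 9.24% (6.0 and 3.71% of all genes called higher and lower). col-124 had 1083 and 1696 CPM in ets-4, against 685 and 956 in wt, a log2 fold change of 0.74 ± 0.14 (adjusted p = 0.0313, edgeR). col-142 had 14 and 27.2 CPM in ets-4, against 7.97 and 12.7 in wt (0.96). For col-124 and col-142 each ets-4 library lay above both wt libraries. The other 9, among them col-19 (0.42), col-42 (0.43) and col-181 (0.26), were higher by 0.26 to 0.56. The count was 5 and 2 without wt 4 °C replicate 1 and replicate 2, 6 and 0 without ets-4 4 °C replicate 1 and replicate 2, and 0 without the replicate block.

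In daf-16 ets-4 against ets-4 at 4 °C, 6 members were higher and 2 lower, or 5.04 and 1.68% (1.74 and 2.11% of all genes). Both double mutant comparisons share the ets-4 libraries. col-99 had 4.02 and 4.08 CPM in daf-16 ets-4, against 1.71 and 1.9 in ets-4, a log2 fold change of 1.16 ± 0.19 (adjusted p = 0.0135, edgeR). col-116 had 1.79 and 3.49 CPM in daf-16 ets-4, against 6.46 and 8.27 in ets-4 (-1.5, adjusted p = 0.00846, edgeR). col-165 had 0.655 and 0.111 CPM, against 2.3 and 0.886 (-2.10). The rest, col-142, col-118, col-19, col-160 and col-95, were higher by 0.29 to 1.05. The count was 3 without either ets-4 4 °C library, 1 without daf-16 ets-4 4 °C replicate 1, and 0 without the replicate block. DESeq2 called 18 higher and 3 lower.

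In pqm-1 ets-4 against ets-4 at 4 °C, 14 members were higher and 2 lower, or 11.8 and 1.68% (3.8 and 2.1% of all genes). col-19 had 995 and 1174 CPM in pqm-1 ets-4, against 614 and 912 in ets-4 (0.52, adjusted p = 0.0188, edgeR). col-12 had 0.961 and 6.66 CPM, against 0.112 and 0.582 in ets-4, a log2 fold change of 3.29 ± 0.54 (adjusted p = 0.021, edgeR), and col-13 had 6 and 60 counts, against 1 and 2, a ratio of 20.1 with a 95% exact counting interval of 6.59 to 100. dpy-8, a furrow collagen, had 1.68 and 3.36 CPM, against 0.421 and 0.202 (2.91). Of these low members, the highest library was replicate 2 of pqm-1 ets-4. col-165 was lower (0.24 and 0.123 CPM in pqm-1 ets-4, -3.08), as was col-95 (-0.28). The count was 66 without pqm-1 ets-4 4 °C replicate 1, 5 and 3 without ets-4 4 °C replicate 1 and replicate 2, and 0 without the replicate block.

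At 20 °C more members were called between the double mutants and ets-4, and the difference from 4 °C was not tested. With daf-16 ets-4 set against ets-4 by label, 28 of 133 members tested were higher and 1 lower, or 21.1 and 0.752% (3.65 and 0.695% of all genes). With pqm-1 ets-4 set against ets-4, 47 were higher and 3 lower, or 35.3 and 2.26% (7.71 and 1.62% of all genes). The median log2 fold changes of the members were 1.61 and 2.49, against 0.01 and 0.03 over all genes. The filter was set over the 8 libraries of a temperature, so a low member could be tested through the group where it was high. col-168, with no counts under the ets-4 label at 20 °C, is a case. Nothing is therefore read from the shares and medians of the members between strains, here or at 4 °C. In ets-4 against wt at 20 °C, 0 members were higher and 1, col-95, was lower, or 0.752% (1.01 and 0.286% of all genes), with 23 members at an unadjusted p under 0.05 and 7 called by DESeq2. col-95 had 168 and 119 CPM under the ets-4 label, against 265 and 204 in wt (-0.71 ± 0.11, adjusted p = 0.0238, edgeR), and it was not called without any 1 of these 4 libraries.

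**Figure D4:**
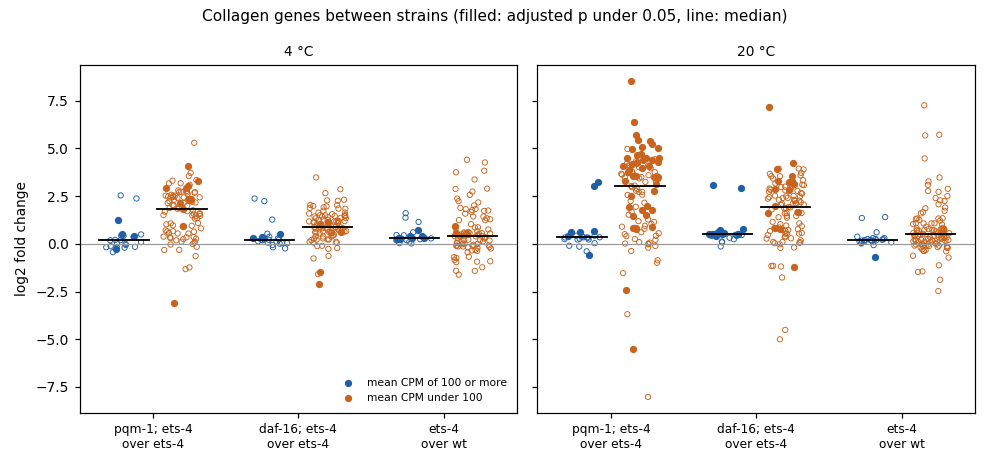
Log2 fold change of each tested member between strains at 4 °C (left) and 20 °C (right), with members of a mean of 100 CPM or more in blue and lower members in orange (filled, adjusted p under 0.05; open, not called; line, median). The medians of the lower members are above those of the abundant members in both double mutant comparisons, and furthest above 0 in pqm-1 ets-4 over ets-4 at 20 °C. A low member could pass the filter through the group where it was high, so nothing is read from these medians.

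The collagens col-129, col-139 and col-81, named after their values were seen, were higher in both double mutants at 20 °C. col-129 (chromosome IV, 12108734 to 12110439, minus strand) had 486 and 418 CPM under the daf-16 ets-4 label at 20 °C and 336 and 688 under the pqm-1 ets-4 label, against 53.1 and 69.7 under the ets-4 label and 17.3 and 30.3 in wt. col-139 (chromosome V, 4652863 to 4653971, minus strand) had 369 and 319 CPM in daf-16 ets-4 and 256 and 569 in pqm-1 ets-4, against 34.4 and 50.3 in ets-4. col-81 (chromosome II, 11012397 to 11013767, minus strand) had 237 and 219.7 CPM in daf-16 ets-4 and 165 and 421 in pqm-1 ets-4, against 19.8 and 29.1 in ets-4. For all 3, every double mutant library lay above every ets-4 and wt library at 20 °C. The log2 fold changes over ets-4 were 2.93 ± 0.36, 3.09 ± 0.37 and 3.30 ± 0.41 in daf-16 ets-4 for col-129, col-139 and col-81 (adjusted p = 0.0323, 0.0323 and 0.0375, edgeR), and 3.02, 3.24 and 3.52 in pqm-1 ets-4. These calls were lost without the replicate block, where 0 members were called in either comparison. At 4 °C their levels in the double mutants were also above those in ets-4, with 79.2 and 88.6 CPM of col-129 in daf-16 ets-4 and 53.6 and 162 in pqm-1 ets-4, against 10.4 and 29.8 in ets-4, which did not pass the test in either comparison.

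Between strains at 20 °C the most abundant collagens had smaller fold changes. col-19 had 1965 and 1932 CPM in daf-16 ets-4 and 1678 and 1870 in pqm-1 ets-4, against 1122 and 1237 in ets-4, log2 fold changes of 0.73 ± 0.11 (adjusted p = 0.0219, edgeR) and 0.60 ± 0.11 (adjusted p = 0.0172, edgeR). col-124 was higher by 0.77 and 0.65. Of the 23 members with means of 100 CPM or more, 13 were higher in daf-16 ets-4 and 6 in pqm-1 ets-4, with col-95 lower in pqm-1 ets-4 (-0.59). The other lower calls in the double mutants at 20 °C were col-43 in both double mutants (-1.21 and -2.43) and col-121 in pqm-1 ets-4, with 0 and 1 counts, against 22 and 25 in ets-4, where its level was 54.6 times that in pqm-1 ets-4 with a counting interval of 9.34 to 2200.

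The low members gave the largest fold changes. col-147 had 8.25 and 17.2 CPM in daf-16 ets-4 and 8.51 and 44.7 in pqm-1 ets-4, against 0.568 and 1.88 in ets-4 (3.53 ± 0.37 and 4.29 ± 0.37, adjusted p = 0.019 and 0.00759, edgeR). col-146, col-145, col-161 and col-88 followed the same order, with log2 fold changes of 6.39, 5.71, 5.42 and 5.39 in pqm-1 ets-4. col-7 had 0.679 and 2.37 CPM in daf-16 ets-4 and 1.34 and 5.82 in pqm-1 ets-4, against 0.063 and 0.132 in ets-4 (3.90 and 5.07). col-168 had no counts under the ets-4 label at 20 °C, and was at least 9.88-fold higher in daf-16 ets-4 and at least 29.0-fold higher in pqm-1 ets-4 against the floor of 3 counts over the group.

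These counts rested on few libraries. In pqm-1 ets-4 against ets-4 at 20 °C the number of members called was 18 without pqm-1 ets-4 20 °C replicate 2, 101 without its replicate 1, and 2 and 1 without ets-4 20 °C replicate 1 and replicate 2. In daf-16 ets-4 against ets-4 at 20 °C it was 54 without daf-16 ets-4 20 °C replicate 2, and 0 and 1 without ets-4 20 °C replicate 1 and replicate 2. Without the replicate block 0 members were called in either comparison, with 71 and 89 at an unadjusted p under 0.05 in the blocked fits of daf-16 ets-4 against ets-4 and of pqm-1 ets-4 against ets-4.

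One library stood apart. Of the 168 members with any count, 102 had their highest CPM in pqm-1 ets-4 20 °C replicate 2 and 21 in daf-16 ets-4 20 °C replicate 1, and no other library held more than 6. The 143 members with means under 10 CPM summed to 205 and 1369 CPM in the libraries labelled pqm-1 ets-4 at 20 °C, 266 and 374 in daf-16 ets-4, 123 and 138 in ets-4 and 88.8 and 125 in wt. At 4 °C they summed to 130.3 and 452 CPM in pqm-1 ets-4, 134 and 194 in daf-16 ets-4, 98.4 and 104 in ets-4 and 85.5 and 79.8 in wt. The 23 abundant members, by contrast, summed to 25470 and 25570 CPM in the 2 pqm-1 ets-4 libraries at 20 °C.

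Body shape collagens were high in the same library. dpy-13 had 0.492 and 35.7 CPM in the libraries labelled pqm-1 ets-4 at 20 °C, 2.9 and 5.48 in daf-16 ets-4, 0.757 and 1.05 in ets-4 and 0.049 and 0.403 in wt. dpy-5 had 0.381 and 32.3 CPM in pqm-1 ets-4, 3.31 and 4.46 in daf-16 ets-4, 0.284 and 0.657 in ets-4 and 0.025 and 0.378 in wt. rol-6, whose mutant turns the animal about its axis, had 0 and 11.9 CPM in pqm-1 ets-4, against 0.189 and 0.263 in ets-4. The single library of pqm-1 ets-4 replicate 2 was high in each, and its partner replicate 1 was near the level of ets-4 and wt, and none of the 8 body shape collagens was called between strains at 20 °C. Other members, such as col-88 with 3.94 and 39 CPM in pqm-1 ets-4 and 1.42 and 5.79 in daf-16 ets-4, against 0 and 0.964 in ets-4, were raised in both libraries of each double mutant.

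Sperm genes were also highest in that library. The 12 sperm markers, mostly genes of the major sperm protein, summed to 51 and 205 CPM in pqm-1 ets-4 at 20 °C, 109 and 133 in daf-16 ets-4, 19.1 and 32.5 in ets-4 and 7.63 and 22.4 in wt, and to 20.2 and 94.5 CPM in pqm-1 ets-4 at 4 °C, 23.3 and 60.3 in daf-16 ets-4, 17.4 and 28.7 in ets-4 and 6.66 and 15.5 in wt. No sperm marker was at 0 in a whole group except 1 in ets-4 at 4 °C. In the cold, 8 of 12 were lower in daf-16 ets-4 and 5 of 12 in pqm-1 ets-4, and none was called in wt or ets-4. Over all genes, 28.5% were called lower in daf-16 ets-4, 25.8% in pqm-1 ets-4, 22.6% in wt and 23.1% in ets-4. These counts do not show a difference between strains. The difference in cold response from wt was not called for msp-142 in daf-16 ets-4, for example (-1.87, adjusted p = 0.427, edgeR). Early embryo markers summed to 4.61 to 7.29 CPM at 4 °C and 8.28 to 16.7 CPM at 20 °C, with up to 2 of 9 at 0 in a group. The 4 seam cell genes, of which 1 was at 0 in 6 of the 8 groups, summed to 4.10 to 9.43 CPM at 4 °C and 5.98 to 27.7 CPM at 20 °C. At 20 °C the summed levels of muscle and intestine genes were also higher in both double mutants than in ets-4 or wt, and none of these genes was at 0. The 4 muscle genes summed to 3670 and 4630 CPM in pqm-1 ets-4 at 20 °C, 3020 and 4130 in daf-16 ets-4, 2780 and 2720 in ets-4 and 1970 and 2050 in wt, and at 4 °C to 2820 and 3360 CPM, 2890 and 3100, 2400 and 2970, and 1780 and 2150 in the same strains. The 5 intestine genes summed to 665 and 838 CPM in pqm-1 ets-4 at 20 °C, 636 and 759 in daf-16 ets-4, 475 and 495 in ets-4 and 391 and 368 in wt, and to 216 to 711 CPM over the 8 libraries at 4 °C. In pqm-1 ets-4 against ets-4 at 20 °C, the myosin gene unc-54 (0.65, adjusted p = 0.0198, edgeR) and the intestinal genes ifb-2 (0.72) and act-5 (0.65) were higher by about as much as col-19 (0.60). There, 2 of 4 muscle genes, 2 of 5 intestine genes and 0 of 7 epidermal genes were called higher, against 7.71% of all genes. Nothing is read from counts of this size. The seam cell gene grd-10, listed apart from the epidermal genes, was higher by 1.43 (adjusted p = 0.0107, edgeR). It was also higher in daf-16 ets-4 against ets-4 at 20 °C (1.38, adjusted p = 0.019, edgeR). The seam cell genes elt-6 (-0.04) and wrt-10 (0.22) were not called in pqm-1 ets-4 against ets-4 at 20 °C. The part of these tissues, or of the stage of the animals, in the collagen results was not tested.

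**Figure D5:**
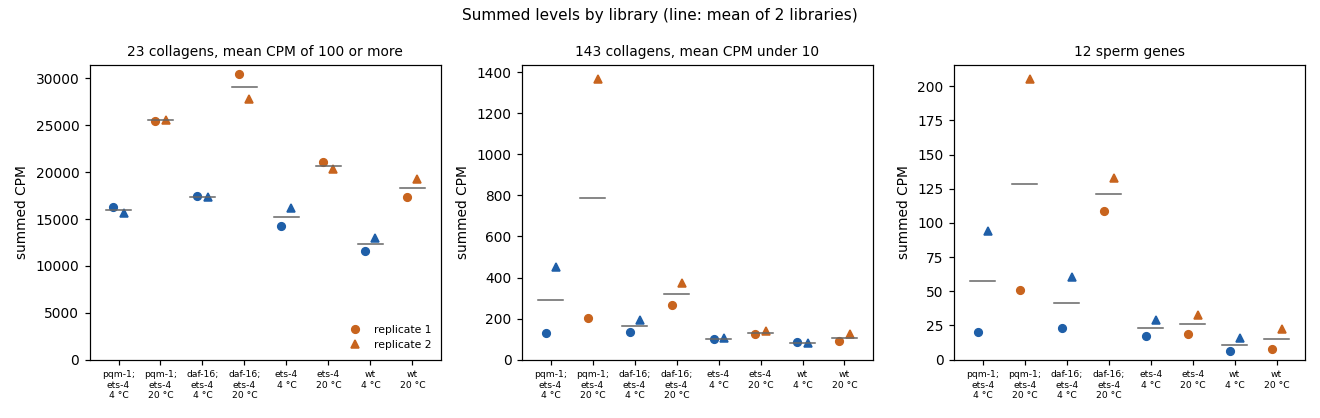
Summed CPM in each library of the 23 collagens with means of 100 CPM or more, the 143 collagens with means under 10 CPM and the 12 sperm genes (circle, replicate 1; triangle, replicate 2; line, their mean; blue, 4 °C; orange, 20 °C). The low collagens reach 1369 CPM in pqm-1 ets-4 20 °C replicate 2 and stay at or under 452 CPM elsewhere, and the sperm genes are also highest in that library.

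The 2 replicates were also compared with all groups fitted together. In replicate 2 against replicate 1, over the 8 groups, 53 of 137 members were higher and 3 lower, or 38.7 and 2.19% (21.9 and 17.7% of all genes), with a median log2 fold change of 0.91 over the members and 0.04 over all genes. The median was 0.03 over the 23 members with means of 100 CPM or more and 1.32 over the 68 with means of 1 to 10 CPM. The filter and these ranges were set on the same libraries. Of the 168 members with any count, 102 were highest in pqm-1 ets-4 20 °C replicate 2. A low member could thus be included through a replicate 2 library, and nothing is read from these shares and medians. The largest were col-156 (3.30), col-88 (2.96 ± 0.48, adjusted p = 0.00304, edgeR), col-152 (2.82), col-91 (2.55) and col-161 (2.5). col-43 (-0.64), col-95 (-0.21) and col-181 (-0.12) were lower. Of the 12 sperm genes, 10 were higher in replicate 2. Of the 143 low members, 120 were higher in replicate 2 in pqm-1 ets-4 at 20 °C and 16 lower, and 57 were higher and 68 lower in wt at 4 °C, and whether the difference varies with the group was not tested. The count of called members was 40 without pqm-1 ets-4 20 °C replicate 2, and 37 without its replicate 1 or without either pqm-1 ets-4 4 °C library.

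Of 12 genes that process collagen, wt had 2 higher and 4 lower in the cold, ets-4 had 1 higher and 4 lower, and each double mutant had 2 higher and 6 lower. Over all genes tested, the share called higher was 19% for wt, 21.3% for ets-4, 25.8% for daf-16 ets-4 and 25.9% for pqm-1 ets-4. The share called lower was 22.6% for wt, 23.1% for ets-4, 28.5% for daf-16 ets-4 and 25.8% for pqm-1 ets-4, and nothing is read about these lists from counts of this size, here or for the 2 lists that follow. mlt-7, a peroxidase needed for molting, had 89.4 and 87.3 CPM in wt at 4 °C, against 30.6 and 36.7 at 20 °C (1.40 ± 0.15, adjusted p = 2.88e-05, edgeR), and rose in all 4 strains. dpy-18, a subunit of prolyl 4-hydroxylase, had 59.5 and 47 CPM, against 25.5 and 27.9 (1.00), and its fellow subunit phy-2 had 12.5 and 10.5 CPM, against 14.9 and 15.6 (-0.41). bli-3, the dual oxidase that cross-links collagen, and its maturation factor doxa-1 were lower in all 4 strains (-0.52 and -1.99 in wt). bli-5, at under 1 CPM in every library, was lower in all 4 too. dpy-31, the protease that trims collagen ends, was lower in the double mutants (-0.33 in daf-16 ets-4 and -0.92 in pqm-1 ets-4).

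Of 12 other cuticle and molting genes, wt had 1 higher and 1 lower, ets-4 and daf-16 ets-4 each had 2 higher and 1 lower, and pqm-1 ets-4 had 1 higher and 2 lower. dpy-6, a mucin-like gene, had 0.436 and 0.24 CPM in wt at 4 °C, against 2.81 and 3.38 at 20 °C (-3.18 ± 0.35, adjusted p = 1.51e-05, edgeR), and was lower in all 4 strains. nas-37, a protease that opens the old cuticle at a molt, was higher in all 4 (0.77 in wt). qua-1, a hedgehog-related gene, was higher in ets-4 (1.76) and daf-16 ets-4 (2.07).

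Of 13 regulators of cuticle genes, wt and ets-4 each had 3 higher and 3 lower, daf-16 ets-4 had 5 higher and 1 lower, and pqm-1 ets-4 had 2 higher and 3 lower. sma-3, the Smad that carries the DBL-1 signal for body size, had 10.0 and 11.3 CPM in wt at 4 °C, against 5.32 and 5.37 at 20 °C (0.99 ± 0.13, adjusted p = 6.33e-05, edgeR), and was higher in all 4 strains. blmp-1, a zinc finger factor of the molting cycle, was lower in all 4 (-1.09 in wt). lin-29, which drives the larva-to-adult switch of the epidermis and activates col-19, was higher in wt (0.73), ets-4 (0.83) and daf-16 ets-4 (0.96). Of the basement membrane collagens, emb-9 had 477 and 542 CPM in wt at 4 °C, against 383 and 373 at 20 °C, a log2 fold change of 0.43.

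The members were spread over all 6 chromosomes, with 42 on IV, 33 on V, 32 on II, 30 on X, 22 on I and 12 on III. Neighbouring members, within 5000 bases of each other, often differed in mean level per kilobase of exon. On chromosome II, col-20 (1369 CPM per kb) lies between col-17 (1.05 CPM per kb) and col-73 (5.05 CPM per kb), and col-80 (649.8 CPM per kb) lies between col-39 (12.2 CPM per kb) and bli-1 (0.508 CPM per kb). On chromosome III, col-93 (347 CPM per kb) lies between col-92 (5.56 CPM per kb) and col-94 (0.664 CPM per kb), and these 3 were lower in the cold in all 4 strains. On chromosome X, col-184 (1588 CPM per kb) lies 1690 bases from col-183 (0.0168 CPM per kb).

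A pair of low collagens was high in 1 library. col-36 had 0 and 23 counts in daf-16 ets-4 at 4 °C and 0 to 2 in the 14 other libraries, and col-123 had 1 and 35 counts there and 0 to 4 elsewhere. For both, daf-16 ets-4 4 °C replicate 2 was the high library, and neither passed the filter on low counts in the fit to 16 libraries.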

How the data were processed

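Poly-A RNA was sequenced as stranded single-end reads from 16 libraries in 8 groups. The authors mapped the reads with STAR to the WBcel235 genome, kept uniquely mapped reads and counted those over exons of protein-coding genes, and the deposited table holds raw counts. The annotation release and strand setting are not given in the sources used here. Unique mapping loses reads shared by near-identical collagens. Totals were 32046029 to 48770269 counts per library, and all 16 count columns were used.

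The members and gene lists were chosen with earlier results of these data known. Genes with low counts were removed by filterByExpr and libraries were scaled by TMM. edgeR (4.0.16, R 4.3.3) quasi-likelihood tests with the replicate number as a block were fitted across all genes, on 16 libraries for cold responses, differences between them and the replicates, and on the 8 libraries of a temperature for strains. Benjamini-Hochberg adjusted p under 0.05 was the threshold. The fits were tested on simulated data with planted changes. Standard errors were derived from the fold change and its F value. Coordinates come from Ensembl release 115, in which 98.6% of the genes in the table matched.

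The replicate numbers were taken to pair the libraries because same-numbered libraries deviated from their group means together, with correlations across 15775 genes of 0.456 to 0.657 over 6 pairs of strains at 4 °C, 0.329 to 0.58 over 6 at 20 °C and 0.225 to 0.712 over 16 between temperatures. The pairing comes from the numbers in the labels and from these correlations.

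Named members were the 16 phenotype-named collagens with col-7, col-10, col-12, col-13, col-19 and col-99, the 10 with the highest mean CPM, and in each comparison the 5 largest called changes each way. The members col-17, col-36, col-39, col-73, col-80, col-81, col-92, col-93, col-98, col-101, col-123, col-126, col-127, col-129, col-139, col-143, col-171, col-178 and col-183 were named after their values were seen. Alternatives were no block, a block within each temperature, DESeq2 (1.42.0), RLE scaling, TMM without the members, no filter, a 2-fold rule in both replicates with a pseudocount of 8, the strain fits on 16 libraries, and leaving out each library. The exclusion of pqm-1 ets-4 20 °C replicate 2 from every fit, and the settings for members moving in all 4 strains, were added after seeing the data. Sequences of the collagens were not used here.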

Additional observations from a re-analysis of the deposited data

Results flagged for a closer look

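The cold response of col-95 differed between strains in a test of the difference itself, with a log2 fold change 1.19 higher in daf-16 ets-4 than in wt. The difference was 1.09 in pqm-1 ets-4 and 0.75 in ets-4, in the same direction and not called, so it is not shown to be particular to daf-16 ets-4. The call rests on the libraries named beside it above.

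col-184 moved in opposite directions in 2 strains, with a log2 fold change of 4 °C over 20 °C of 0.21 in ets-4, where both 4 °C libraries lay above both 20 °C libraries, and of -0.20 in daf-16 ets-4, where both lay below. The difference between the 2 responses was not tested.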

How the results depend on the processing

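No direction of the 151 called values of named members reversed in 1850 alternatives, and 449 of these lost the call. Only values called in the main fit were followed, and on the same libraries, so a reversal was unlikely from the start. Values of named members that were not called were not followed. Without the replicate block 78 of 137 called values lost the call. The number of members called in the cold was 20 in wt and 20 in ets-4 under the 2-fold rule, and 41 in daf-16 ets-4 and 44 in pqm-1 ets-4 without the block, and leaving out a library gave 27 to 38 in wt, 30 to 43 in ets-4, 43 to 73 in daf-16 ets-4 and 49 to 93 in pqm-1 ets-4. Members lower in all 4 strains numbered 12 and higher 0 under the 2-fold rule, and 21 to 28 lower and 0 to 2 higher without a library (21 without ets-4 4 °C replicate 1).

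For the difference in cold response from wt, DESeq2 called 1 member in ets-4, 2 in daf-16 ets-4 and 4 in pqm-1 ets-4. In daf-16 ets-4 no block gave 0 and a block within each temperature 2. In pqm-1 ets-4 RLE scaling, TMM without the members and no filter gave 1 each, and a block within each temperature 2. Leaving out a library gave 0 in ets-4, 0 to 1 in daf-16 ets-4 and 0 to 2 in pqm-1 ets-4 (2 without pqm-1 ets-4 20 °C replicate 1). The replicate comparison gave 37 to 56.

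Between strains, no block gave 0 in each of the 6 comparisons, and each of these calls rests on the pairing. At 4 °C, ets-4 against wt gave 21 by DESeq2, 4 in the fit to 16 libraries and 0 to 6 without a library. daf-16 ets-4 against ets-4 gave 21 by DESeq2 and 21 by the 2-fold rule, and 1 to 9 without a library. pqm-1 ets-4 against ets-4 gave 32 by DESeq2 and 3 to 66 without a library. At 20 °C, ets-4 against wt gave 7 by DESeq2, 3 with no filter, 5 by the 2-fold rule, 3 in the fit to 16 libraries and 0 without any library. daf-16 ets-4 against ets-4 gave 52 by DESeq2, 59 by the 2-fold rule and 0 to 54 without a library. pqm-1 ets-4 against ets-4 gave 1 to 101 without a library. In pqm-1 ets-4 against ets-4 at 4 °C, the split of 14 higher and 2 lower was 11 and 0 in the fit to 16 libraries.

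With totals multiplied by the TMM factor, the share of counts on the members was 1.77% in daf-16 ets-4 4 °C replicate 1, 2.87% in daf-16 ets-4 20 °C replicate 2 and 2.06% in ets-4 20 °C replicate 2. The cause of these changes was not tested. With 2 libraries a group and many members under 1 CPM, 34 of 171 members could not be tested, and small differences in other low members could be missed.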
